A study of Mus musculus with 31 samples.

Results

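Markers of tubular injury are transcripts that a healthy nephron makes at low levels and that damaged, dedifferentiated or repairing kidney epithelium makes at higher levels. The set described here holds 8 genes, taken by symbol from the count tables: Lcn2, Havcr1, Spp1, Clu, Vcam1, Sox9, Cd24a and Sprr1a. All 8 were among the 23509 genes counted, and all 8 passed the filter on low counts that left 15185 genes to test. RNA-seq counts came from whole kidneys of 12 Pcy/CD1 mice given PBS, 14 Pcy/CD1 mice given RGLS4326 and 5 untreated male wild-type CD1 mice. RGLS4326 is a short oligonucleotide inhibitor of the microRNA miR-17, and it was injected under the skin once a month at 25 mg per kg from 5 to 30 weeks of age. The PBS mice had the same strain and age, with weekly PBS in the sample labels and in the study but monthly in the protocol text. Pcy mice form kidney cysts slowly. The wild-type mice were of the same age, 30 weeks at harvest. The labels give a sex for the wild-type mice, and the study describes its dosed Pcy/CD1 mice as male too. The wild-type mice were neither injected nor stated to be littermates of the Pcy mice.

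Kidney tubules answer damage with a known programme. Injured cells secrete proteins such as Ngal and osteopontin, display receptors and adhesion molecules such as Kim-1 and Vcam-1 on their surface, and switch on regulators of repair such as Sox9. Several of these products are followed in urine as signs of kidney damage. The comparison of PBS with wild type asks how far the markers are raised in cystic kidneys, and the comparison of RGLS4326 with PBS asks whether the inhibitor changed them. In whole kidney RNA, more cells that make a transcript and more transcript per cell cannot be told apart.

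RGLS4326 pairs with the seed of miR-17, the part of a microRNA that selects its targets, so the seed is shown here and the markers were searched for matches to it. The mature mouse sequence is from RefSeq (GRCm38.p6, chr14:115043684-115043706, plus strand), with the seed, bases 2 to 8, in capitals.
mmu-miR-17-5p: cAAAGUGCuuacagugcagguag
The matching letters in a transcript are GCACTTT, and they were searched on the sense strand of the longest annotated 3′UTR of each gene. Of the 8 markers, 1 held a match, Spp1, compared with 1934 of the 13832 tested genes that have an annotated 3′UTR (13.98%). The Spp1 match lies at chr5:104440815-104440821 on the plus strand of GRCm38, in exon 7 of 7, at base 197 of a 3′UTR of 432 bases. It is shown with its flanks, and the capitals mark the match.
Spp1 3′UTR: caaaagcttctGCACTTTgcttctgttct
It is a match of 7 letters and not the longer form with a following A, which 593 genes held (4.29%). The letters are a description of these sequences and do not show that miR-17 acts on Spp1. Shorter or shifted matches and sites outside this 3′UTR were not searched, so a marker without a match may still be a target.

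Each mouse had between 14892524 and 27459962 gene counts, and group medians lay between 19898000 and 20562148. Levels are given as CPM, counts per gene after library sizes were equalised by the TMM method of edgeR. Differences are log2 fold changes from edgeR's quasi-likelihood test over all 31 mice, with the standard error (SE) and a p adjusted by Benjamini-Hochberg over the 15185 genes. A gene was called when the adjusted p was under 0.05 and the log2 fold change was over 0.5 in size. The libraries had features that bear on the markers. RGLS4326 mouse 9 stood apart: 56.4% of the 6442 genes called between PBS and wild type lay within the range of the 5 wild-type mice in this mouse, compared with 5.22% to 21.3% in the 13 other RGLS4326 mice and 3.65% to 12.6% in the PBS mice. Wild-type mice 3 and 4 were much more alike than the other wild-type pairs, with a chi-square per gene of 2.84 compared with at least 17.1. That value is above counting noise alone, but it cannot show whether the libraries came from separate animals. They have separate titles and were kept as separate mice. The numbers in the deposited library names fall into 3 runs, called index series here, which hold 4, 4 and 4 PBS mice, 4, 5 and 5 RGLS4326 mice and 2, 2 and 1 wild-type mice. The labels do not say what an index series was.

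All 8 markers were higher in PBS-treated Pcy kidneys than in wild-type kidneys, and all 8 were called. By the same rule 24.6% of all genes were called higher and 17.8% lower. The median log2 fold change of the 8 markers was 2.51, compared with 0.01 over all genes tested. For 7 of the 8 markers every PBS mouse lay above every wild-type mouse, a separation that 20.3% of all genes showed. The exception was Sprr1a, where 10 of 12 PBS mice did. Lcn2 had the largest rise of the markers and ranked 9 among all genes tested.

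RGLS4326 called none of the 8 markers against PBS (0 of 8). Among all genes 0.935% were called higher and 1.22% lower. By unadjusted p, 2 of 8 markers, Sox9 and Cd24a, were under 0.05 with edgeR, as were 5595 of all 15185 genes. With DESeq2 2 of 8 were, Clu and Cd24a, and 5720 of all genes, while Sox9 was at an unadjusted p of 0.055. Lower fitted values were found for 7 of the 8 markers and a higher one for Havcr1, with a median log2 fold change of −0.35 compared with −0.0043 over all genes tested. Cd24a alone passed the adjusted p (0.0374) but its change was below the size threshold.

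Against wild type, all 8 markers were still called higher in the RGLS4326 group, as were 20.3% of all genes, with 11.3% called lower. The median log2 fold change of the markers in this comparison was 2.25. The 3 comparisons share mice, so their values are set side by side for each marker and not used as support for each other.

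**Figure D1:**
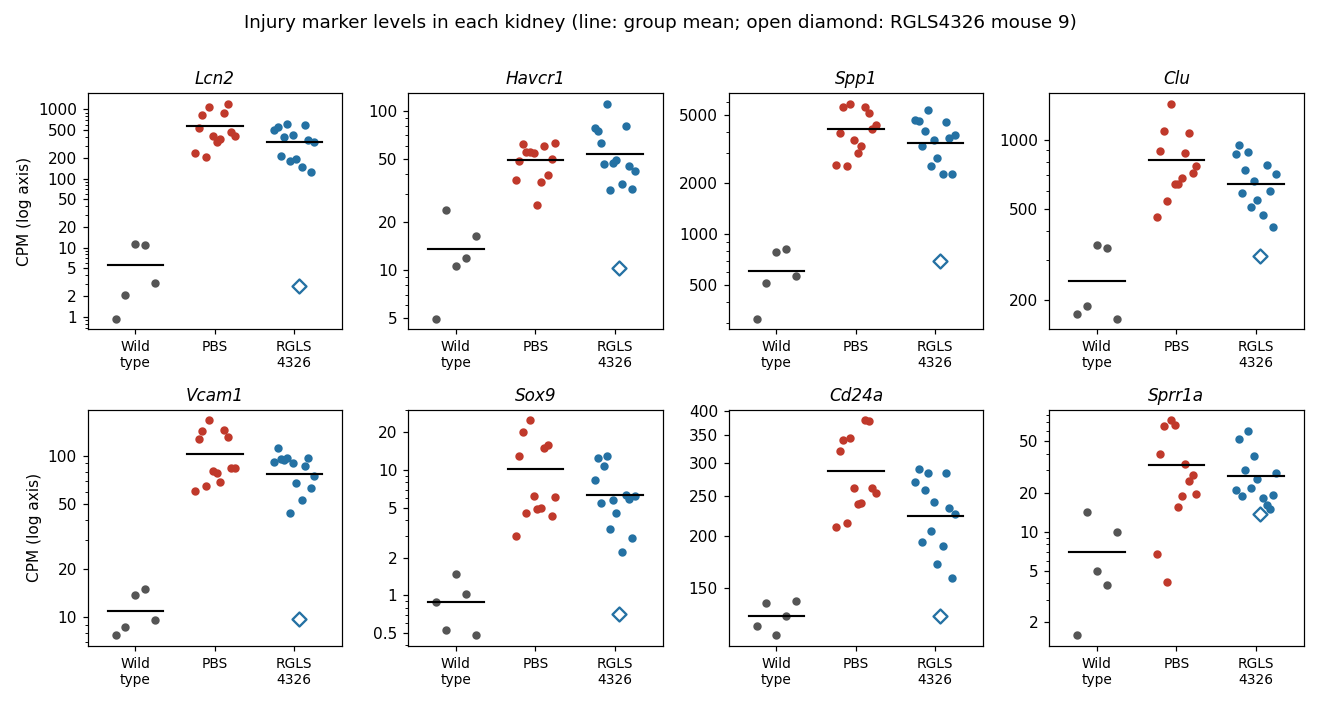
Level of each injury marker in CPM (log axis) in 5 wild-type, 12 PBS and 14 RGLS4326 kidneys, 1 point per mouse, with a line at the group mean. The open diamond, RGLS4326 mouse 9, lies within the wild-type range in all 8 panels, and the other 13 RGLS4326 mice lie above the wild-type range in all 8.

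Among the secreted markers, Lcn2 encodes Ngal, an iron-siderophore binding protein that injured distal tubules and collecting ducts release. The gene lies at chr2:32384633-32388252 on the minus strand of GRCm38. It read 0.944, 2.08, 11.2, 11.02 and 3.07 CPM in wild-type mice 1 to 5. With PBS it ran from 205 to 1205 CPM with a median of 444, and with RGLS4326 from 2.76 to 607 CPM with a median of 354. The wild-type and PBS groups did not overlap, and the wild-type values themselves split between mice 3 and 4 and the rest. Lcn2 was higher with PBS than in wild type by a log2 fold change of 6.68 (SE 0.85, adjusted p = 7.24e-08, edgeR), from a mean of 5.67 ± 5.04 (SD, n = 5) to 583 ± 336 CPM (SD, n = 12). The mean with RGLS4326 was 333 ± 193 CPM (SD, n = 14), a log2 fold change of −0.81 from PBS (SE 0.41, adjusted p = 0.148, edgeR). The study itself reports significantly lower Ngal mRNA in kidney and Ngal protein in urine of Pcy/CD1 mice given RGLS4326, weekly or monthly. The Lcn2 estimate here has the same direction but was not called, and the study's own Ngal measurements were not tested again. Below all PBS mice lay 5 of 14 RGLS4326 mice, including mouse 9, and none lay above them. Neutrophils also make Lcn2, and the 8 listed neutrophil markers summed to 4.20 to 8.99 CPM with PBS and 2.44 to 5.81 CPM in wild type. Of these markers 4 passed the filter on low counts, 1 was called higher with PBS (Csf3r) and S100a8 and S100a9 were not called.

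Spp1 encodes osteopontin, a secreted phosphoprotein of the matrix that binds integrins and CD44 and is made by tubules and by macrophages. It spans chr5:104435118-104441050 on the plus strand. Spp1 was the most abundant marker, at 319, 518, 790, 823 and 568 CPM in wild-type mice 1 to 5. It ran from 2522 to 5836 CPM with PBS (median 4045) and from 696 to 5380 CPM with RGLS4326 (median 3628). Every PBS mouse lay far above the wild-type mice, and among the treated mice only mouse 9 lay within their range. The rise with PBS was 2.77 on the log2 scale (SE 0.33, adjusted p = 3.33e-08, edgeR). Means were 4130 ± 1197 CPM (SD, n = 12) in PBS mice and 3448 ± 1248 CPM (SD, n = 14) under RGLS4326, and this difference was not called (log2 fold change −0.26, SE 0.21, adjusted p = 0.361, edgeR). The annotated transcript Gm42793 overlaps Spp1 on the same strand, so reads in the shared bases are uncertain.

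Clu encodes clusterin, a secreted chaperone that injured tubules make, and lies at chr14:65968483-65981547 on the plus strand. In wild-type mice 1 to 5 it read 174, 189, 348, 336 and 166 CPM. With PBS it ran from 460 to 1436 CPM (median 741) and with RGLS4326 from 310 to 944 CPM (median 628). As with Lcn2, wild-type mice 3 and 4 were above the other 3, and mouse 3 came closest to the lowest PBS mouse. Clu was called higher with PBS (log2 fold change 1.75, SE 0.26, adjusted p = 7.97e-07, edgeR). Under RGLS4326 the log2 fold change from PBS was −0.34 (SE 0.17, adjusted p = 0.146, edgeR), and 2 of 14 mice lay below all PBS mice.

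Of the surface markers, Havcr1 encodes Kim-1, a phosphatidylserine receptor that injured proximal tubule cells display and shed into urine. It lies at chr11:46735080-46779578 on the plus strand. It read 4.95, 23.7, 10.6, 11.9 and 16.4 CPM in wild-type mice 1 to 5, from 25.7 to 63.0 CPM with PBS (median 52.0) and from 10.3 to 110 CPM with RGLS4326 (median 46.5). The wild-type and PBS groups were close at their edges, with wild-type mouse 2 just below PBS mouse 7. Havcr1 was called higher with PBS (log2 fold change 1.85, SE 0.36, adjusted p = 3.78e-05, edgeR). It was the only marker with a positive treatment estimate, 0.13 on the log2 scale (SE 0.23, adjusted p = 0.705, edgeR), which became 0.0019 without RGLS4326 mouse 5. Above all PBS mice lay 4 RGLS4326 mice, which happened for no other marker, while 1 lay below them. The mean was 53.0 ± 25.6 CPM (SD, n = 14) in the treated mice, against 48.6 ± 11.7 CPM (SD, n = 12) under PBS, and the spread was wider in the treated mice.

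Vcam1 encodes an adhesion molecule that binds integrin α4 on leukocytes, and it is made by activated endothelium and by proximal tubule cells that fail to repair. It lies at chr3:116109949-116129688 on the minus strand. It read 7.73, 8.67, 13.7, 14.96 and 9.63 CPM in wild-type mice 1 to 5, from 60.6 to 166 CPM with PBS (median 84.0) and from 9.82 to 111 CPM with RGLS4326 (median 88.8). The PBS mice lay well clear of wild type, and Vcam1 had the smallest p of the markers in that comparison, at rank 554 of all genes tested. Vcam1 was higher with PBS by 3.23 on the log2 scale (SE 0.37, adjusted p = 2.37e-08, edgeR). Its median was slightly higher with RGLS4326 than with PBS while its mean was lower, 77.0 ± 27.1 CPM (SD, n = 14) compared with 103 ± 36.8 CPM (SD, n = 12), and 5 PBS mice lay above the highest treated mouse. The treatment log2 fold change was −0.42 (SE 0.22, adjusted p = 0.167, edgeR). Of 8 listed endothelial markers, 0 were called higher and 2 lower with PBS, Kdr and Tek, and their part in the result was not tested. An antisense transcript, Gm43109, overlaps Vcam1, and the strand setting of the counting is not given in the sources used here.

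Cd24a encodes a small surface glycoprotein of immature and regenerating epithelium that B cells also carry, and it lies at chr10:43578284-43584265 on the plus strand. It had the tightest values of the markers, at 122, 138, 116, 128 and 140 CPM in wild-type mice 1 to 5. It ran from 211 to 380 CPM with PBS (median 262) and from 129 to 291 CPM with RGLS4326 (median 230). Its rise with PBS was the smallest of the 8, 1.16 on the log2 scale (SE 0.17, adjusted p = 4.92e-07, edgeR). Under RGLS4326 it stood at −0.36 on the log2 scale from PBS (SE 0.12, adjusted p = 0.0374, edgeR), from 287 ± 61.8 CPM (SD, n = 12) to 224 ± 51.0 CPM (SD, n = 14), and 6 of 14 treated mice lay below all PBS mice. Without RGLS4326 mouse 9 the difference was −0.31 (SE 0.11) and its adjusted p was 0.0587. Leaving out 1 mouse at a time, the adjusted p stayed under 0.05 in 20 of 31 fits and ran from 0.0182 to 0.0827.

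Sox9, a transcription factor of kidney development that surviving tubule cells switch on after injury, lies at chr11:112782224-112787760 on the plus strand. It was the least abundant marker, at 0.885, 0.535, 1.48, 1.03 and 0.482 CPM in wild-type mice 1 to 5. With PBS it ran from 2.96 to 24.9 CPM (median 6.14) and with RGLS4326 from 0.716 to 13.02 CPM (median 5.84). The PBS mice fell between a lower set up to 6.21 CPM and a higher set from 12.9 CPM, with none between. Sox9 was called higher with PBS (log2 fold change 3.53, SE 0.63, adjusted p = 1.11e-05, edgeR). The treatment log2 fold change was −0.70 (SE 0.34, adjusted p = 0.132, edgeR), with means of 10.2 ± 7.28 CPM (SD, n = 12) and 6.29 ± 3.72 CPM (SD, n = 14), and without PBS mouse 5, the highest, it was −0.50.

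Sprr1a encodes a cornified envelope precursor of stratified and damaged epithelia and lies at chr3:92483952-92485895 on the minus strand. It read 1.59, 14.3, 4.97, 3.88 and 9.996 CPM in wild-type mice 1 to 5. It ran from 4.09 to 72.5 CPM with PBS (median 26.03) and from 13.8 to 59.6 CPM with RGLS4326 (median 21.4). PBS mice 1 and 4 lay within the wild-type range, and the PBS mice differed from each other by up to 17.7-fold. The rise with PBS was called (log2 fold change 2.25, SE 0.55, adjusted p = 0.000585, edgeR) and the treatment difference was not (−0.28, SE 0.34, adjusted p = 0.559, edgeR). Leaving out PBS mouse 5 moved the treatment estimate to −0.12 and leaving out RGLS4326 mouse 5 moved it to −0.43.

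Sprr1a was closest to genes of a different epithelium. The 3 genes whose levels were most like it over the 26 Pcy mice, of 11568 compared, were Upk1a, Upk1b and Upk3a, with r of 0.99, 0.99 and 0.98 after centring each group. These are uroplakins, plaque proteins that define the urothelium lining the renal pelvis, and not tubule genes. Upk1a read 2.85 to 7.37 CPM in wild type, 3.29 to 47.7 CPM with PBS and 10.02 to 33.9 CPM with RGLS4326, so it spanned a wide range within the Pcy groups. Over that range the ratio of Sprr1a to Upk1a in CPM stayed between 1.08 and 1.71 with PBS (median 1.49) and between 1.29 and 1.76 with RGLS4326 (median 1.49). In wild type it was 0.540 to 1.94 (median 1.38). For comparison, the ratio of Lcn2 to Upk1a ran from 10.1 to 73.5 with PBS and from 0.276 to 58.7 with RGLS4326. Within the PBS group the Pearson r of Sprr1a with Upk1a was 0.997 (rho 0.993), and within the RGLS4326 group it was 0.987 (rho 0.969). The other 7 markers had r with Upk1a of 0.35 to 0.76 with PBS and 0.44 to 0.64 with RGLS4326. These r values describe genes picked for their likeness to Sprr1a and carry no test.

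Other tested genes of squamous and urothelial cells were also higher with PBS, by log2 fold changes from 1.09 (Trp63) to 4.60 (Sprr2f). Of 10 listed, 8 passed the filter and all 8 were called higher with PBS, among them Upk1a (log2 fold change 2.20, SE 0.47, adjusted p = 0.000111, edgeR), Krt14 (2.92, SE 0.68, adjusted p = 0.00034, edgeR) and Sprr2f (4.60, SE 0.93, adjusted p = 5.74e-05, edgeR), which was near 0 in wild type at a mean of 0.0242 CPM. RGLS4326 called 0 of the 8. Their summed level was 7.84 to 29.5 CPM in wild type, 11.2 to 163 CPM with PBS and 36.1 to 126 CPM with RGLS4326. How much of the Sprr1a difference comes with the amount of urothelium in each piece of kidney was not tested.

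**Figure D2:**
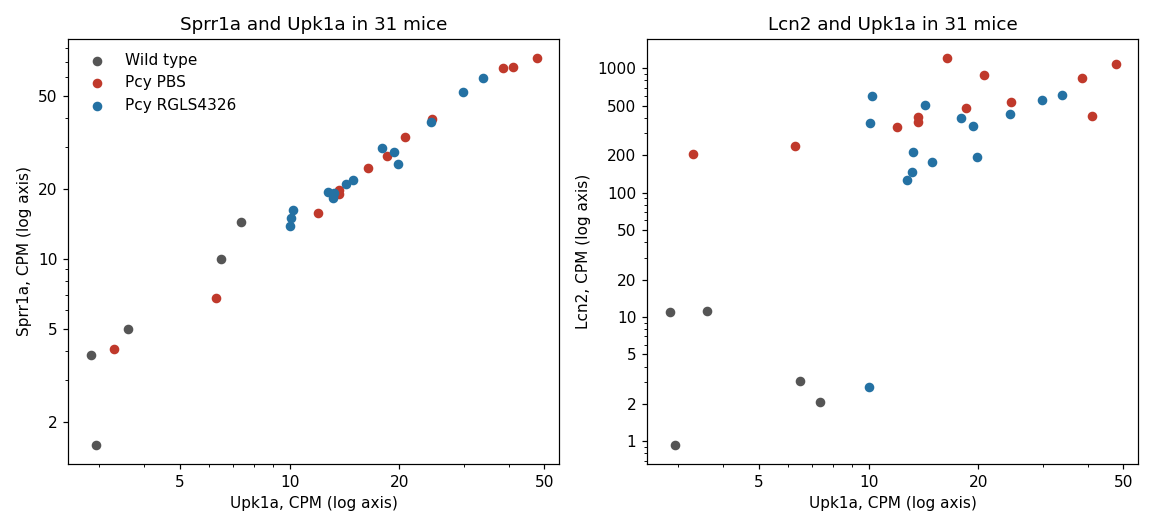
Sprr1a (left) and Lcn2 (right) against the uroplakin Upk1a, all in CPM on log axes, 1 point per mouse coloured by group. Sprr1a follows Upk1a along a single line in the Pcy mice of both groups, whereas Lcn2 differs between mice of the same Upk1a level.

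To compare the markers with each other, CPM was divided by the length of each gene's merged exons in kilobases. On this scale Spp1 was highest with PBS, at 2506 ± 726 CPM per kb (SD, n = 12), followed by Clu at 238 ± 80.1 and Lcn2 at 222 ± 128. Cd24a stood at 111 ± 24.0, Sprr1a at 40.8 ± 29.2, Havcr1 at 21.0 ± 5.07, Vcam1 at 11.6 ± 4.15 and Sox9 at 2.48 ± 1.76 CPM per kb. By mean ± SD, Clu and Lcn2, Lcn2 and Cd24a, and Sprr1a and Havcr1 overlapped, and the other neighbours in this order did not. In wild type Spp1 was again highest, at 366 ± 126 CPM per kb (SD, n = 5), while Lcn2 stood at 2.16 ± 1.92. By mean ± SD the wild-type level of Lcn2 overlapped those of Sprr1a (8.62 ± 6.37), Havcr1 (5.85 ± 3.03), Vcam1 (1.23 ± 0.36) and Sox9 (0.213 ± 0.0982), so its place among them was not resolved.

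**Figure D3:**
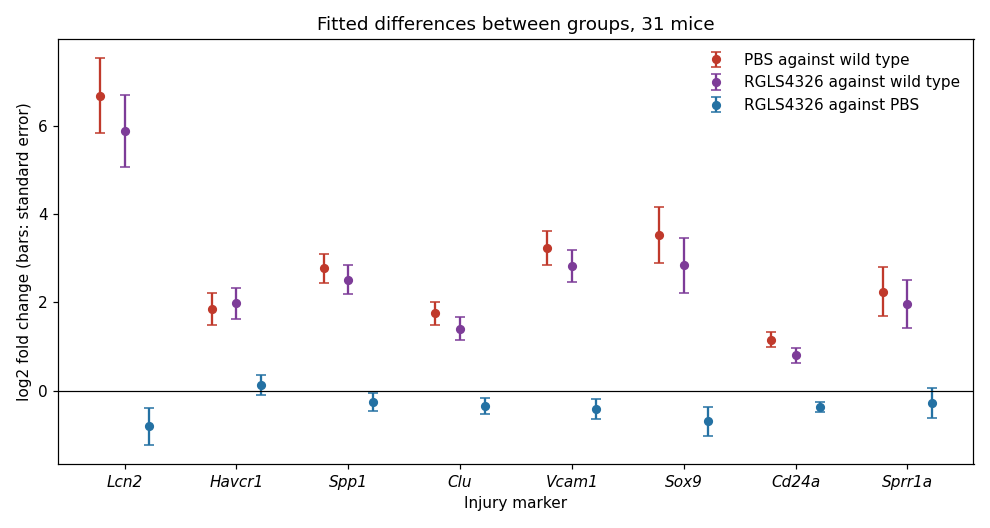
Log2 fold change of each injury marker with its standard error in the 3 comparisons of the 31 mice. Values against wild type run from 0.80 to 6.68 and values of RGLS4326 against PBS from −0.81 to 0.13.

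RGLS4326 mouse 9 was the lowest mouse of its group for all 8 markers and within the wild-type range for all 8. It read 2.76 CPM of Lcn2, 10.3 of Havcr1, 696 of Spp1 and 9.82 of Vcam1. Its proximal tubule markers summed to 37534 CPM, within the wild-type range of 37453 to 42423, whereas Upk1a was at 10.02 CPM, above the highest wild-type mouse. The 13 other RGLS4326 mice were above every wild-type mouse for every marker, as they were for 16.2% of the 15185 genes tested. With mouse 9 left out, the treatment log2 fold changes were −0.70 for Lcn2 (SE 0.32, adjusted p = 0.129), 0.22 for Havcr1, −0.17 for Spp1, −0.29 for Clu, −0.32 for Vcam1, −0.60 for Sox9 (adjusted p = 0.182) and −0.23 for Sprr1a, by edgeR, and again 0 of 8 were called, beside 144 of all 15185 genes in either direction. Against wild type all 8 were called higher without it, beside 5135 of all genes called in either direction. Lcn2 was higher by 5.99 (SE 0.62) where all 14 mice gave 5.88 (SE 0.81), and Cd24a by 0.85 (SE 0.15) where all 14 gave 0.80 (SE 0.16).

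The treatment estimates differed in size between index series. In the first, the log2 fold changes from PBS were −0.12 for Lcn2, −0.15 for Sox9, −0.10 for Cd24a, −0.01 for Vcam1, 0.07 for Clu, 0.06 for Sprr1a, 0.19 for Spp1 and 0.38 for Havcr1. In the second, which holds mouse 9, they were −0.96 for Lcn2, −0.89 for Sox9, −0.39 for Cd24a, −0.66 for Vcam1, −0.54 for Clu, −0.45 for Sprr1a, −0.39 for Spp1 and 0.22 for Havcr1. In the third they were −1.23 for Lcn2, −1.11 for Sox9, −0.54 for Cd24a, −0.56 for Vcam1, −0.53 for Clu, −0.43 for Sprr1a, −0.53 for Spp1 and −0.18 for Havcr1. Within each series 0 of 8 markers were called, and 0 of all 15185 genes. By unadjusted p under 0.05 the third series gave 7 of 8 markers and the first 2 gave 0 each. Of the 15185 genes, 277 were under it in the first series, 3001 in the second and 3019 in the third. The difference between series was itself tested as an interaction in the 26 Pcy mice. No marker passed it (smallest adjusted p = 0.944, edgeR), nor did any gene, with 0% called and 284 of 15185 genes at an unadjusted p under 0.05. Without mouse 9 the smallest adjusted p of the markers was 0.989.

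**Figure D4:**
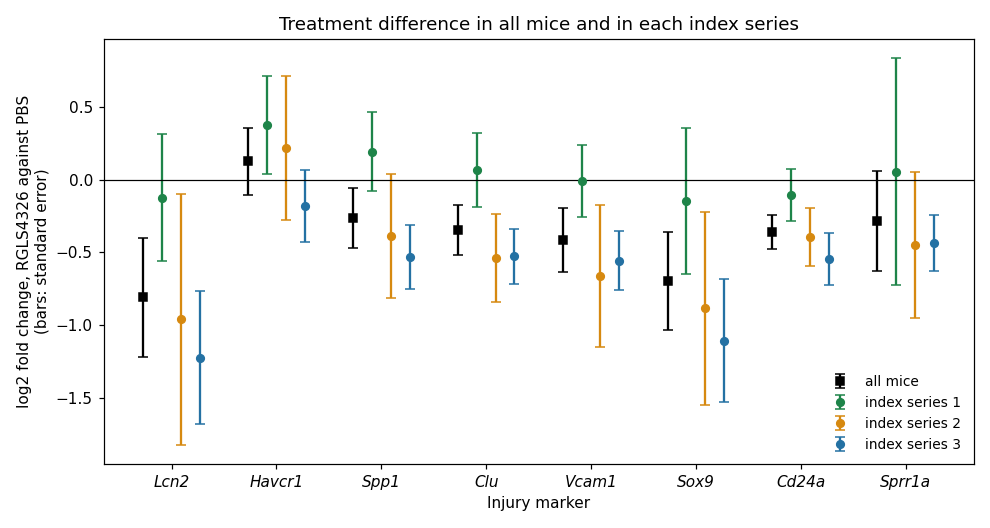
Log2 fold change of each injury marker, RGLS4326 against PBS, with its standard error, in all mice (black) and in each index series alone (colours). Estimates of the first series lie between −0.15 and 0.38, and those of the third between −1.23 and −0.18.

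Mice of one group differed widely and mostly in the same order for each marker. PBS mouse 5 was among the 3 highest PBS mice for 7 of 8 markers and PBS mouse 3 for 6, whereas PBS mouse 1 was among the 3 lowest for 8, PBS mouse 4 for 7 and PBS mouse 7 for 6. In the treated group, mouse 5 was among the 3 highest for all 8 markers and mouse 2 for 7. The pairwise Pearson correlation of log2(CPM + 1) between markers was positive for all 28 pairs in each group. Its median was 0.87 over the 12 PBS mice (0.31 to 0.97) and 0.88 over the 14 RGLS4326 mice (0.48 to 0.98). In a family of 56 pairs, 21 of 28 had an adjusted p under 0.05 with PBS and 25 of 28 with RGLS4326 by Pearson's r, and 21 and 23 by Spearman's rho (permutation tests, 100000 resamples). The mice of a group share kidney tissue sampled in bulk, so any common shift in tissue makeup enters all pairs.

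In the PBS group the highest r was 0.97, between Vcam1 and Sox9 (rho 0.89). Lcn2 and Cd24a had r of 0.96 (rho 0.97), and Lcn2 and Spp1 0.95 (rho 0.90). Havcr1 stood apart from the other markers there, with r of 0.31 to 0.52, and all 7 of its pairs missed the threshold. In the RGLS4326 group Havcr1 had r of 0.84 to 0.94 with the markers other than Sprr1a, and without mouse 9 of 0.72 to 0.86. Whether these r values differ between the groups was not tested. Sprr1a had the lowest values in the RGLS4326 group, with r of 0.48 to 0.71. The median r over all pairs with the 2 mice farthest from the median left out was 0.86 with PBS and 0.79 with RGLS4326. Without mouse 9 the RGLS4326 median was 0.80, and centred within index series the medians were 0.90 and 0.88.

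**Figure D5:**
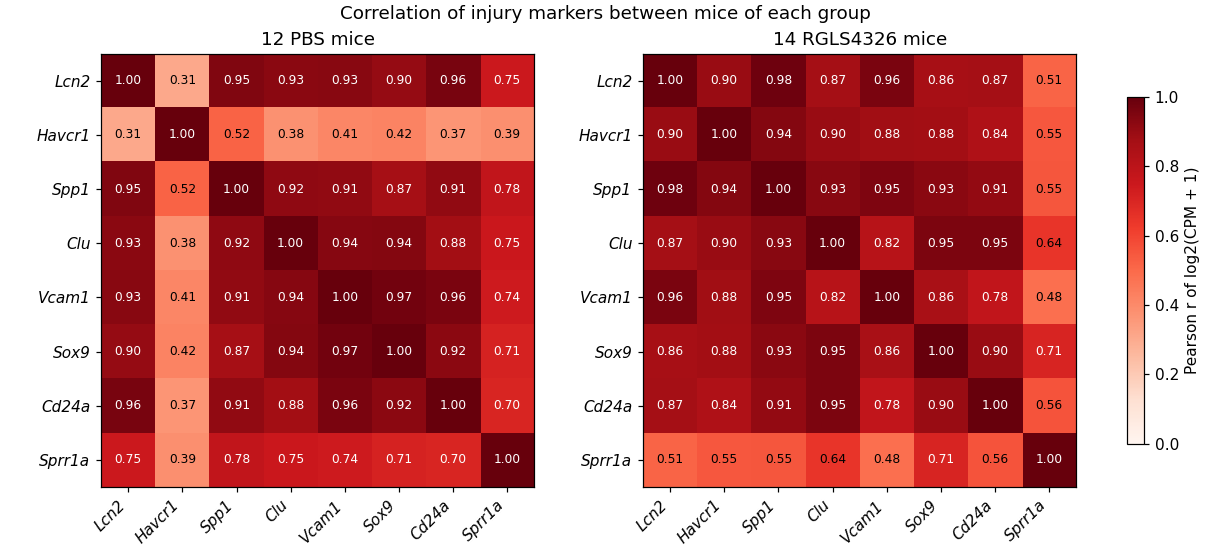
Pearson r of log2(CPM + 1) between each pair of injury markers over the 12 PBS mice (left) and the 14 RGLS4326 mice (right), on a colour scale from 0 to 1. Havcr1 has r of 0.31 to 0.52 with the other markers in the PBS group, and Sprr1a has the lowest r in the RGLS4326 group.

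Each marker's closest genes over the 26 Pcy mice were also named, as a description by r of group-centred values. For Lcn2 they were S100a11 (r = 0.98), Timp1 and Aoc1 (both 0.97). S100a11 is a calcium-binding protein of stressed epithelium, and Timp1 an inhibitor of matrix metalloproteinases. Vcam1 was closest to Aoc1, the chemokine gene Ccl2 and the hyaluronan receptor gene Cd44 (all 0.98). Spp1 was closest to the complement regulator gene Cfi, Serpina10 and S100a11 (all 0.97). Clu was closest to the ceruloplasmin gene Cp, Gpr56 and Pea15a (0.95, 0.95 and 0.94). Sox9 was closest to the metalloproteinase gene Mmp7 (0.96), Spns2 and Shisa4 (both 0.95). Cd24a was closest to Pamr1 (0.97), Golm1 and the calcium channel gene Trpv6 (both 0.96). Havcr1 had looser neighbours, the tissue factor gene F3, Sertad4 and Ajuba (all 0.88). Without mouse 9 these r values were 0.92 to 0.96 for the neighbours of the markers other than Havcr1 and Sprr1a, and 0.77 to 0.80 for those of Havcr1.

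Most genes of 3 further injury lists were called higher with PBS than in wild type. Of 15 tested genes for secreted injury products, 14 were called higher and 0 lower. The complement gene C3 rose by 3.92 on the log2 scale (SE 0.43, adjusted p = 1.18e-08, edgeR) and Ccl2 by 3.97 (SE 0.48, adjusted p = 3.49e-08, edgeR), and the median of the list was 1.502. Of 19 epithelial injury genes, 19 were called higher, with a median of 1.98, among them Anxa2 (1.98, SE 0.22) and Vim (1.55, SE 0.18). Of 14 regulators of the injury response, 12 were called higher and 0 lower, with a median of 1.66, including Myc (2.39, SE 0.30) and Stat3 (1.07, SE 0.14).

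The same lists held 4 genes that RGLS4326 called lower than PBS and 0 that it called higher. Mmp7, which degrades matrix and is made by injured tubules, fell by 1.62 on the log2 scale (SE 0.46, adjusted p = 0.0259, edgeR), from a mean of 18.1 to 5.82 CPM, with 0.419 CPM in wild type. Sox4, a transcription factor related to Sox9, fell by 0.59 (SE 0.17, adjusted p = 0.0262, edgeR). Anxa2, an annexin of the cell membrane, was just past the size threshold (−0.50, SE 0.14, adjusted p = 0.0259, edgeR). The fourth, Dcdc2a, stood at −0.72 (SE 0.25, adjusted p = 0.0486, edgeR) and is named after its value was seen. Prom1 passed the adjusted p but not the size threshold (−0.44, SE 0.12, adjusted p = 0.0205, edgeR). By list, 1 of 15 secreted, 2 of 19 epithelial and 1 of 14 regulator genes were called lower, and the list medians were −0.22, −0.42 and −0.15. With each of the 31 mice left out in turn, the counts called lower ran from 0 to 1 secreted, 0 to 7 epithelial and 0 to 1 regulator genes. The 7 came without RGLS4326 mouse 2, while without RGLS4326 mouse 9 the counts were 1, 0 and 1 and without PBS mouse 10 they were 0 in each list. The fibrinogen chain gene Fgb (1.14, SE 0.50, adjusted p = 0.101) and the haem oxygenase gene Hmox1 (0.17, SE 0.07, adjusted p = 0.0858) had positive values that were not called.

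Receptors and binding partners of the marker proteins were mixed. Of 11 tested, 5 were called higher and 3 lower with PBS, and 0 were called under RGLS4326 (0 to 1 lower with a mouse left out). Lrp2, the megalin gene, whose product takes up Ngal from the filtrate, was lower (log2 fold change −1.34, SE 0.20, adjusted p = 6.50e-07, edgeR), at a mean of 1430 CPM with PBS compared with 3609 in wild type and 1883 with RGLS4326. Itgav, the αv integrin chain that binds osteopontin, was lower too (log2 fold change −0.94, SE 0.09, adjusted p = 1.46e-09, edgeR). Its partner chain gene Itgb5 was 0.45 higher, below the size threshold, and −0.19 under RGLS4326 (adjusted p = 0.0374, edgeR), also below it.

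Markers of kidney cell types moved with the injury markers, and their part in the differences was not tested. Of 14 proximal tubule markers, 0 were called higher and 13 lower with PBS. Their sum was 37453 to 42423 CPM in wild type, 11496 to 22846 with PBS and 15971 to 37534 with RGLS4326, where mouse 9 gave the highest value. Under RGLS4326, 2 of the 14 were called higher, Keg1 (0.63, SE 0.14, adjusted p = 0.00916, edgeR) and Gatm (0.51, SE 0.18, adjusted p = 0.0458, edgeR). Slc22a6, an organic anion transporter gene, had 0.35 (SE 0.10, adjusted p = 0.0272, edgeR), below the size threshold. Of 8 thick limb and distal markers, 5 were called lower with PBS and 1 higher under RGLS4326, Pvalb (−3.83, SE 0.50 with PBS and 1.27, SE 0.42, adjusted p = 0.04 under RGLS4326, edgeR). Without mouse 9, without PBS mouse 10, and in a fit that blocks on replicate number, 1 proximal tubule marker and 0 thick limb or distal markers were called higher. Over all 31 fits with a mouse left out the counts ran from 1 to 4 and from 0 to 1. Of 9 collecting duct markers, 7 were called higher and 1 lower with PBS, among them the vasopressin receptor gene Avpr2 (1.92, SE 0.14), and 1 was called lower under RGLS4326, the water channel gene Aqp2 (−0.56, SE 0.16, adjusted p = 0.0265, edgeR). Without PBS mouse 10, and likewise with that block, 0 collecting duct markers were called lower with RGLS4326, and over the 31 fits 0 to 2 were. Aqp3 (−0.47, SE 0.11, adjusted p = 0.0105, edgeR) and Scnn1b (−0.41, SE 0.09, adjusted p = 0.00989, edgeR) passed the adjusted p under RGLS4326 but not the size threshold. Other genes of this list did the same, among them Avpr2 (−0.39, SE 0.09, adjusted p = 0.0125, edgeR).

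Leukocyte and stromal markers were higher with PBS for most cell types listed. Of 8 tested macrophage markers 7 were called higher, for example C1qa (3.11, SE 0.37). The macrophage sum was 152 to 164 CPM in wild type, 311 to 535 with PBS and 148 to 596 with RGLS4326, where mouse 9 gave the lowest value. All 8 lymphocyte markers were called higher, Cd8a by 3.28 (SE 0.40), with sums of 6.47 to 11.98 CPM in wild type and 31.7 to 44.5 with PBS. Of 8 fibroblast markers 7 were called higher, Col3a1 by 3.21 (SE 0.33), and of 6 podocyte markers 3, Synpo by 0.95 (SE 0.17). Kdr and Tek were the endothelial markers called lower (−1.05, SE 0.24, and −0.73, SE 0.23). RGLS4326 called 0 macrophage, 0 lymphocyte, 0 fibroblast, 0 endothelial and 0 podocyte markers in either direction, and 1 of 4 tested neutrophil markers lower, Ltf, at a mean of 0.148 CPM compared with 0.322 with PBS. Without PBS mouse 10, or with the block on replicate number, 0 neutrophil markers were called lower. With a mouse left out, 0 to 2 macrophage, 0 to 1 lymphocyte and 0 to 1 neutrophil markers were called lower, and 0 fibroblast, endothelial or podocyte markers in either direction.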

How the data were processed

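Kidney RNA was measured by stranded, poly(A)-selected RNA-seq. Per the labels and the study's methods, reads were checked with FastQC 0.11.2, trimmed with Trim Galore, mapped with STAR on GRCm38 (mm10) and handled with SAMtools 1.1 and Picard 1.119. The authors deposited raw counts of uniquely mapped reads for 23509 genes, made with HTSeq 0.6.1 and not normalized. Genes with near-identical copies, such as Cd24a, can lose reads that map to several places. Rows that name no gene were left out (10.4% to 12.5% of counts had no feature).

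edgeR 4.0.16 in R 4.3.3 (filterByExpr, TMM, quasi-likelihood test) was fitted to all 31 mice without covariates. SEs are the log2 fold change divided by the root of F. Replicates have separately numbered titles and were taken as separate mice. Counts were simulated for RGLS4326 against PBS over 15185 genes, with changes of 1 or 2 on the log2 scale put into randomly drawn genes. Of these, 98 of 100 genes changed by 1 and 100 of 100 changed by 2 were called, with 2 false calls. Changes smaller than 1 were not simulated. All marker estimates in this comparison were below 1 in size, so these counts do not give the power for the markers. DESeq2 1.42.0 and Python 3.11.15 (numpy 2.4.6, pandas 2.3.3, scipy 1.17.1, matplotlib 3.10.9) served for alternatives and the rest. Positions are from GENCODE vM21. Same-numbered mice of the Pcy groups did not deviate together (mean r −0.08 over 12 pairs).

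The markers and gene lists were chosen with earlier results of these data known. Named genes were the markers, the 2 genes of smallest p per list and comparison, and the 3 most correlated genes per marker with a mean of at least 5 CPM; genes named beyond this rule were chosen after their values were seen. A gene that the rule names is not reported here. The uroplakin ratios and the comparison of mouse 9 with wild type over all called genes were added after seeing the data. Alternatives covered the filter, scaling, test, mice, index series and replicate block.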

Additional observations from a re-analysis of the deposited data

How the results depend on the processing

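All 8 markers were called higher with PBS than in wild type without the filter, with RLE scaling, with DESeq2, with only the groups compared, with index series as a covariate, with a replicate block, and with each of the 31 mice left out in turn (8 to 8 called). Index series 1 alone called 7, losing Sprr1a. Of all genes 6442 of 15185 were called in that comparison, 5567 in index series 1 alone and 7183 of 19698 without the filter. Under RGLS4326 against PBS the count of 0 held in these settings (0 to 0 with a mouse left out) and rose to 1, Cd24a, with no size threshold. With the replicate block, which pairs mice only by number, the Cd24a difference was −0.33 (adjusted p = 0.107) and 43 genes in all were called rather than 327. Under RGLS4326 against wild type 8 were called, but 7 in index series 1 alone (without Sprr1a), 0 in index series 2 alone and 5 in index series 3 alone. Of all 15185 genes, 4789 were called in that comparison with all mice, and 4949, 365 and 2441 in index series 1, 2 and 3 alone. In index series 1 alone the treatment sign was reversed for Spp1 (0.19), Clu (0.0681) and Sprr1a (0.0558), and in index series 3 alone for Havcr1 (−0.18). None of these passed the test. The number of all genes called under RGLS4326 against PBS ran from 78 (without PBS mouse 10) to 578 (without RGLS4326 mouse 2), with 144 without RGLS4326 mouse 9, 2402 with no size threshold and 0 in each index series alone. Under the replicate block the 3 injury lists held 0 called genes in that comparison. With 5 wild-type mice, the width of the wild-type range rests on few animals.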
